A study of Oikopleura dioica with 12 samples.

Results

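Ribosome footprints were compared between day-6 females of the tunicate Oikopleura dioica kept in 1 μM Torin 1, an inhibitor of the kinase mTOR, and females kept in the vehicle DMSO. Footprints, or ribosome-protected fragments (RPFs), are the pieces of mRNA that a ribosome shields from nuclease, so that their share in a library reports how the ribosomes were spread over mRNAs. The comparison rests on 6 of the 12 libraries of the series, chosen by their labels and columns as the RPF libraries: 3 from Torin 1 and 3 from DMSO. The other 6 hold total RNA from the same groups. Both groups were exposed for 1.5 h in seawater with the usual algal food, no genetic change is named for either, and whole animals were pooled for each library. The 3 replicates per group are described as biological. All 14574 genes of the count table (of 17212) with at least 100 reads over the 12 libraries were tested.

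The kinase mTOR couples nutrient supply to protein synthesis. When it is inhibited, vertebrate cells take ribosomes off mRNAs that start with a terminal oligopyrimidine tract (TOP), which encode ribosomal proteins and several translation factors. The 4E-BP proteins, which hold back the cap-binding initiation factor when mTOR is off, and the S6 kinases, which phosphorylate ribosomal protein S6, are its best known effectors in translation. In O. dioica many of these mRNAs carry a spliced leader, a short RNA joined to their 5′ end by trans-splicing, and many genes lie in operons that are transcribed as 1 unit. Because counts are read relative to their library, a drop that all mRNAs share would not be seen, and fewer cells of a type and less RNA per cell cannot be told apart in libraries of whole animals.

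The RPF libraries differed widely in depth. Totals were 718559, 582868 and 91549 counts in Torin 1 replicates 1, 2 and 3, against 22889270, 874562 and 334447 counts in DMSO replicates 1, 2 and 3. A count of 0 therefore allowed up to 4.18, 5.15 and 32.8 RPM (counts over the library total, times 1000000) in the Torin 1 libraries, against 0.131, 3.43 and 8.97 RPM in the DMSO libraries, from 3 counts and for counting error only. RPF DMSO replicate 1 stood apart in likeness too. Its correlation across genes of log2(RPM + 1) was 0.953 with a total RNA library, RNA Torin 1 replicate 3, and 0.750 to 0.798 with the other RPF libraries. Those 5 correlated with each other at 0.719 to 0.877, and none exceeded 0.833 with any total RNA library. Genes are not independent replicates, and the coefficients are descriptive. Whether RPF DMSO replicate 1 or RNA Torin 1 replicate 3 carries another library's label cannot be told from the files, which bears on every value with 6 libraries and on the RNA changes. Each result is therefore given with all 6 RPF libraries and with the 5 that remain without RPF DMSO replicate 1. The total RNA libraries of replicate 2, Torin 1 and DMSO, correlated at 0.996, closer than any other pair of libraries, which bears on the RNA changes given beside some results.

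The ribosomal proteins are shown first by primers with which the study measured some of these mRNAs by RT-qPCR in RNA of treated and vehicle females, because they mark the members whose RPF values follow. The sequences, in lower case and 5′ to 3′, are those the study lists for the large-subunit protein RPL10, the small-subunit protein RPS12 and the reference gene, a subunit of elongation factor 1 (EF1delta).
RPL10 forward: gtcaagaccatcggcaagga
RPL10 reverse: tcgaacttggtgaagccgaa
RPS12 forward: caggaagtcctcaagcaggg
RPS12 reverse: tagttgccttcgtcgcagtt
EF1delta forward: atgggatgacgaaaccgaccattg
EF1delta reverse: aaatcctcgatcgcggtgatctct

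By share of RPF counts, ribosomal protein mRNAs among the study's TOP orthologs were lower in every Torin 1 library than any DMSO library. The study counts further ribosomal proteins, which are not covered here. The 46 large-subunit proteins, which build the part of the ribosome that joins amino acids, took 0.606%, 0.431% and 0.897% of RPF counts in Torin 1 replicates 1 to 3, against 2.69%, 1.21% and 1.78% in DMSO replicates 1 to 3. The 26 small-subunit proteins, which build the part that reads the mRNA, took 0.363%, 0.276% and 0.578% in Torin 1 and 1.60%, 0.749% and 1.16% in DMSO. The large-subunit list averaged 0.644% ± 0.235 in Torin 1 and 1.89% ± 0.746 in DMSO (SD, n = 3 each), and DMSO averaged 1.49% without replicate 1. The groups did not overlap for either list, with or without RPF DMSO replicate 1. They overlapped for both lists when the 2 genes that took over 5% of an RPF library were left out of the totals. The large-subunit list then took 0.846%, 0.440% and 1.58% in Torin 1, against 2.69%, 1.24% and 2.19% in DMSO, and the small-subunit list 0.506%, 0.282% and 1.02% in Torin 1, against 1.61%, 0.771% and 1.43% in DMSO, with RPF Torin 1 replicate 3 above RPF DMSO replicate 2 in each. With 3 libraries against 3 the smallest exact two-sided permutation p is 0.1, so that such a separation of a single value cannot pass 0.05. RPF DMSO replicate 1 had the highest share of both lists, and total RNA libraries held 2.15% to 4.27% of counts in the large-subunit list. The 95% Wilson interval of a list's share had a half-width of at most 0.0611 percentage points, for counting error only, which is below the SD between replicates of both lists.

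Gene by gene, no listed ribosomal protein passed an adjusted p of 0.05 in edgeR's quasi-likelihood test with either set of libraries. With 6 libraries, 26 of 46 large-subunit and 14 of 26 small-subunit members were lower at an unadjusted p under 0.05, and none was higher, where 4.12% of all genes tested were lower and 1.3% higher. RPM of the groups did not overlap, with Torin 1 the lower, for 37 large-subunit and 21 small-subunit members, and for 8.18% of all genes. For single genes, here and below, RPM keeps the 2 dominant genes in the totals. Whether single genes stay apart without those 2 was not counted, and both list shares overlapped then. The sign was negative for 45 large-subunit and all 26 small-subunit members, and for 61% of all genes. The median log2 fold change (Torin 1 over DMSO) was −1.46 for the large-subunit and −1.47 for the small-subunit list, beside −0.24 for all genes. With 5 libraries, 43 and 25 members were negative, where 47.4% of all genes were, and both medians were −1.16, beside 0.01 for all genes. Then 20 large-subunit and 11 small-subunit members were lower at an unadjusted p under 0.05, where 3.67% of all genes were, and 37 and 21 did not overlap, where 14.9% of all genes were apart and lower. The large-subunit median lay −1.21 from that of all genes with 6 libraries and −1.17 with 5. The median of all genes shifted by −0.11 with 6 libraries when library totals alone set the scale, and 46 of 46 and 26 of 26 members were then negative, beside 45 and 26 otherwise.

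**Figure D1:**
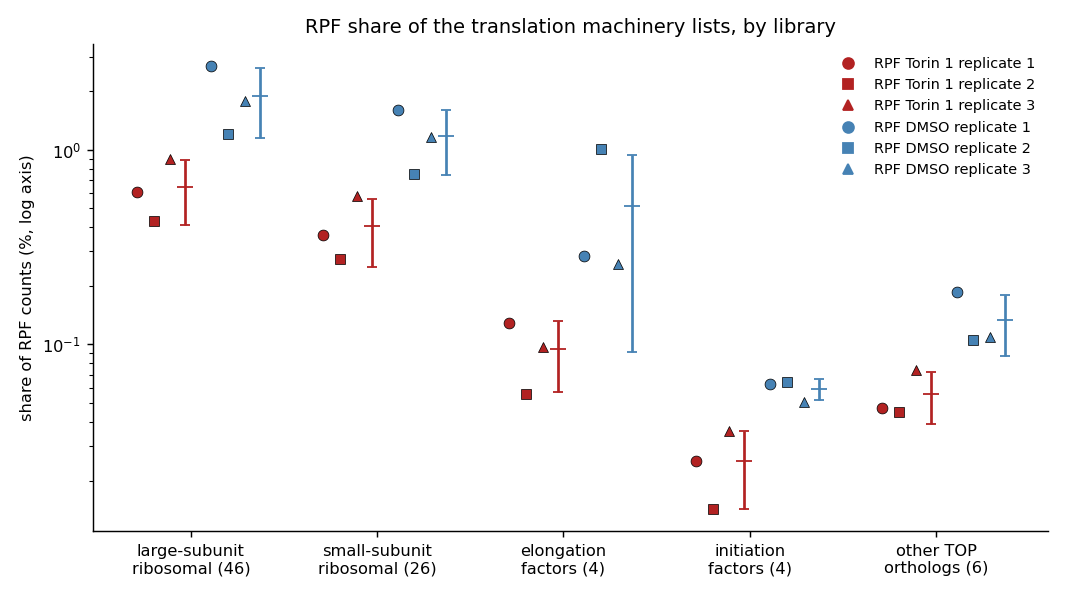
Share of RPF counts (%, log axis) taken by 5 lists of translation genes in each RPF library, with Torin 1 (red) left of DMSO (blue). Symbols mark replicates, and the horizontal ticks with bars give the mean ± SD of 3 libraries. For every list shown, the 3 Torin 1 libraries lie below the 3 DMSO libraries, but with the 2 dominant genes left out of the totals (not drawn) only the elongation factors stay apart.

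Among the large-subunit proteins with most footprints, RPL3 (GSOIDG00014879001, scaffold 6, 158475 to 160096, 4 coding exons) had 320, 166 and 557 RPM in Torin 1, against 1765, 653 and 984 RPM in DMSO. With the 2 dominant genes kept in the totals, the groups were apart. The log2 fold change of RPL3 was −1.58 (SE 0.79) with 6 libraries and −1.15 (SE 0.70) with 5. RPL10 (GSOIDG00013461001), which joins the large subunit late in its assembly, had 291, 237 and 404 RPM in Torin 1 and 1125, 591 and 795 RPM in DMSO. RPL19 had 253, 173 and 437 RPM in Torin 1, against 1623, 451 and 682 RPM in DMSO. RPLP0, which anchors the stalk that receives elongation factors, had 256, 137 and 360 RPM in Torin 1 and 1292, 352 and 478 RPM in DMSO. RPLP0 was the member of these 4 whose groups overlapped, at RPF Torin 1 replicate 3 and RPF DMSO replicate 2. In the small subunit, RPS6 (GSOIDG00015546001), the substrate of the S6 kinases, had 200, 120 and 470 RPM in Torin 1 and 1124, 484 and 748 RPM in DMSO. RPS3A had 239, 196 and 492 RPM in Torin 1, against 1356, 590 and 810 RPM in DMSO. RPS23, at the decoding centre, had 174, 134 and 306 RPM in Torin 1 and 849, 351 and 583 RPM in DMSO. RPS27A, made as a fusion with ubiquitin, had 284, 280 and 535 RPM in Torin 1 and 1011, 364 and 783 RPM in DMSO, and its groups overlapped.

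RPS12 (GSOIDG00000241001, scaffold 1, 865274 to 865879) was one of the ribosomal members whose groups were apart in both sets of libraries. It had 51.5, 12.0 and 65.5 RPM in Torin 1, against 272, 133 and 185 RPM in DMSO. RPS12 had a log2 fold change of −2.13 (SE 0.72, unadjusted p = 0.00675 in edgeR) with 6 libraries and −1.89 (SE 0.61, unadjusted p = 0.00194) with 5, with adjusted p of 0.910 and 0.153. Among total RNA libraries, RPS12 had a log2 fold change of −0.28. RPL10, the other gene with primers above, had −1.31 (SE 0.73) with 6 and −1.07 (SE 0.69) with 5 libraries. The EF1delta reference gene (GSOIDG00003404001) had 12.5, 15.4 and 10.9 RPM in Torin 1 and 48.5, 10.3 and 32.9 RPM in DMSO, so its groups overlapped.

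Few ribosomal members went against the list. Those whose log2 fold change was positive with 5 libraries were RPL7A, a second gene model of RPLP1 (GSOIDG00000922001), the model listed as RPL7L1, and RPS29. RPL7A had 5.57, 1.72 and 10.9 RPM in Torin 1, against 43.3, 0 and 5.98 RPM in DMSO, mostly under what a count of 0 allows in the shallow libraries. RPS29 had 12.5, 13.7 and 65.5 RPM in Torin 1 and 100, 17.2 and 17.9 RPM in DMSO. The model listed as RPL7L1 was the single member above 0 with 6 libraries too, and turned negative there when library totals alone set the scale. RPL4, RPL32, RPLP1 and RPLP2 have 2 gene models each in the list, and reads shared between near-identical copies may have been split between them, since the handling of such reads is not given in the sources used here.

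**Figure D2:**
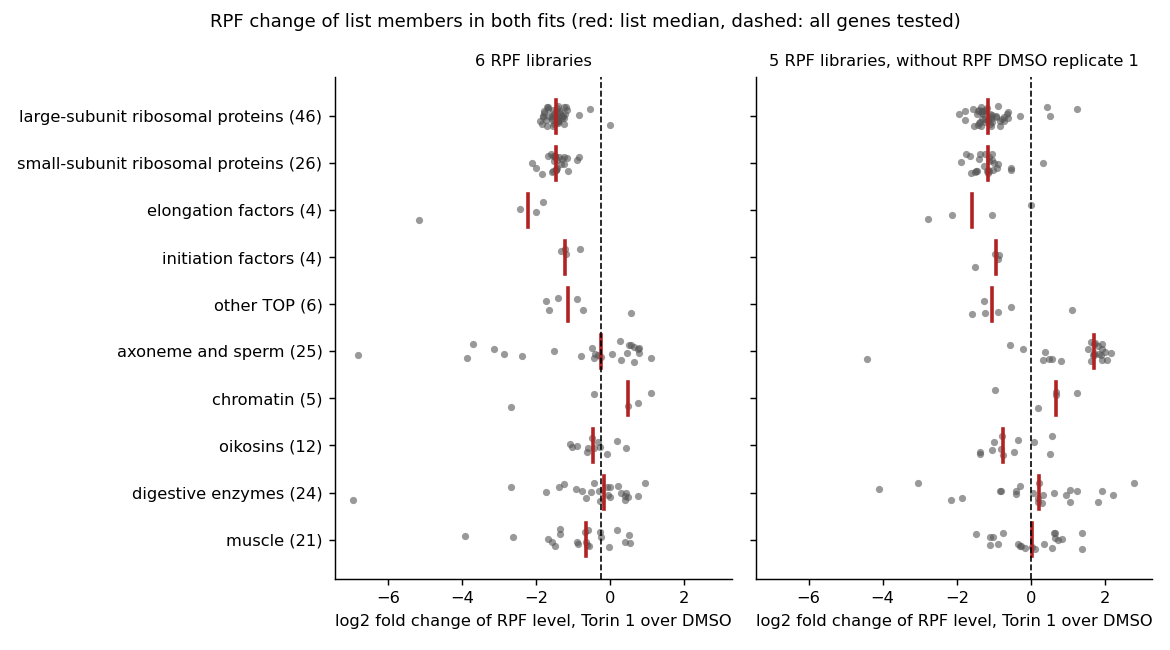
Log2 fold change of RPF level (Torin 1 over DMSO) for each member of 10 gene lists, with all 6 RPF libraries on the left and without RPF DMSO replicate 1 on the right. Each point is a gene's fitted value, which for genes with no count in a group depends on the prior count and is no bound, red bars are list medians and the dashed line is the median of all genes tested. The ribosomal lists stay near −1.46 and −1.16 in the left and right panels, and the axoneme and sperm list has a median of −0.24 in the left panel and 1.69 in the right.

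Elongation factors took 0.130%, 0.0558% and 0.0972% of RPF counts in Torin 1 replicates 1 to 3, against 0.285%, 1.01% and 0.257% in DMSO replicates 1 to 3, with no overlap. They were also apart with the 2 dominant genes left out of the totals, at 0.181%, 0.0570% and 0.171% in Torin 1 and 0.286%, 1.04% and 0.318% in DMSO. EEF2 (GSOIDG00003020001, scaffold 136, 8757 to 14544, 7 coding exons), the GTPase that moves the ribosome by a codon, had 1124, 477 and 863 RPM in Torin 1, against 2412, 9394 and 2171 RPM in DMSO. The groups were apart, but DMSO replicate 2 lay several times above the other DMSO libraries. Its log2 fold change was −2.43 (SE 1.03, unadjusted p = 0.0266 in edgeR) with 6 libraries and −2.77 (SE 0.96, unadjusted p = 0.00401) with 5, against −0.39 in total RNA. EEF1A1 (GSOIDG00006619001), which brings aminoacyl-tRNA to the ribosome, had 167, 77.2 and 87.4 RPM in Torin 1 and 391, 671 and 392 RPM in DMSO. It had a log2 fold change of −1.99 (SE 0.72) with 6 libraries and −2.14 (SE 0.65) with 5, and 0.24 in total RNA. The model of EEF1B2 with more footprints (GSOIDG00014951001), a nucleotide exchange factor of EEF1A, had 4.18, 3.43 and 21.8 RPM in Torin 1, against 40.9, 12.6 and 12.0 RPM in DMSO, and overlapped. The other EEF1B2 model (GSOIDG00004766001) had no RPF count outside DMSO replicate 1, where it had 1.53 RPM, less than a count of 0 allows in each of the other RPF libraries.

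The 4 initiation factors took a smaller share in every Torin 1 library than in any DMSO library, with 0.0253%, 0.0142% and 0.0360% of RPF counts in Torin 1 replicates 1 to 3 and 0.0623%, 0.0640% and 0.0505% in DMSO replicates 1 to 3. With the 2 dominant genes left out of the totals the groups overlapped, at 0.0354%, 0.0146% and 0.0635% in Torin 1 and 0.0626%, 0.0658% and 0.0624% in DMSO. EIF3A, the scaffold subunit of eIF3, had 125, 58.3 and 142 RPM in Torin 1 and 243, 366 and 266 RPM in DMSO. Its log2 fold change was −1.34 (SE 0.68) with 6 libraries and −1.50 (SE 0.62, unadjusted p = 0.0166 in edgeR) with 5, the only one of the 4 under 0.05 before adjustment. EIF3E, another eIF3 subunit, had 51.5, 41.2 and 109 RPM in Torin 1 and 122, 117 and 123 RPM in DMSO. EIF4B, which helps unwind mRNA at initiation, had 47.3, 29.2 and 54.6 RPM in Torin 1 and 143, 88.0 and 86.7 RPM in DMSO. EIF3H, also of eIF3, had 29.2, 13.7 and 54.6 RPM in Torin 1, against 115, 69.7 and 29.9 RPM in DMSO, and overlapped. In total RNA the 4 had a median log2 fold change of −0.55.

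The 6 other orthologs of human TOP mRNAs were mixed, and with the 2 dominant genes left out of the totals their summed share overlapped, at 0.0655%, 0.0458% and 0.131% in Torin 1 and 0.187%, 0.108% and 0.134% in DMSO. NAP1L1, a histone chaperone, had 47.3, 32.6 and 32.8 RPM in Torin 1, against 147, 134 and 114 RPM in DMSO. The groups were apart, with a log2 fold change of −1.65 (SE 0.63) with 6 libraries and −1.58 (SE 0.60) with 5. RACK1, a scaffold protein on the small subunit, had 121, 84.1 and 306 RPM in Torin 1 and 633, 328 and 478 RPM in DMSO, also apart. TPT1, the translationally controlled tumour protein, had 87.7, 46.3 and 164 RPM in Torin 1, against 573, 346 and 98.7 RPM in DMSO, and PABPC1, the poly(A)-binding protein, had 98.8, 112 and 153 RPM in Torin 1, against 350, 96.0 and 284 RPM in DMSO. Both of these overlapped. NPM1, a nucleolar chaperone, had 57.1, 13.7 and 76.5 RPM in Torin 1 and 74.9, 119 and 50.8 RPM in DMSO. The model listed for VIM and described as desmin, an intermediate filament protein, had 57.1, 160 and 10.9 RPM in Torin 1 and 90.0, 26.3 and 59.8 RPM in DMSO, and was the member with a positive log2 fold change, 0.56 (SE 0.68) with 6 libraries and 1.10 (SE 0.62) with 5.

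The S6 kinases overlapped as a list with 6 libraries, at 0.0289%, 0.0175% and 0.0153% of RPF counts in Torin 1 and 0.0183%, 0.0492% and 0.0308% in DMSO, and were apart, Torin 1 lower, without RPF DMSO replicate 1. With the 2 dominant genes left out of the totals they overlapped in both sets. RPS6KA1, of the RSK branch of the family, had 276, 165 and 131 RPM in Torin 1 and 145, 481 and 293 RPM in DMSO, and showed the same dependence. RPS6KB1, the S6 kinase that mTOR activates in mammals, had 13.9, 10.3 and 21.8 RPM in Torin 1, against 37.9, 10.3 and 15.0 RPM in DMSO, values of few reads in each shallow library that overlapped in both sets.

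Across all genes, edgeR called none at an adjusted p under 0.05 with 6 libraries, in either direction (0% of genes, smallest adjusted p 0.910). At an unadjusted p under 0.05, 600 genes were lower in Torin 1 (4.12%) and 190 higher (1.3%), and DESeq2 gave 0 at an adjusted p and 235 lower and 137 higher at an unadjusted p. Of the 600, 211 were also lower at that threshold with 5 libraries, while 161 had the opposite sign there. Of the 190, 142 were also higher at that threshold and none had the opposite sign.

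Ribosomal proteins were most of the genes with a description that were lower by a joint set of criteria. With 6 libraries, 140 genes were lower at an unadjusted p under 0.05 with groups apart and a mean of at least 20 counts over the 5 shallow libraries. Of these, 47 had a name or description, and 39 of the 47 were ribosomal proteins, with 3 more from the other translation lists and 5 from elsewhere. With 5 libraries, 307 genes were lower by the same criteria, of which 47 had a name or description, 30 of them ribosomal proteins, 4 from the other translation lists and 12 from elsewhere. Descriptions were at hand for the study's TOP orthologs and for the first 1998 rows of its table of all tested genes, which is held here in part and runs upward from the lowest change in translational efficiency. That change was measured in these same libraries, so the makeup of the described genes is not independent evidence. Of the 140, 96 lay in predicted operons and 44 outside, where 63.4% of all genes lay outside. Among genes with a mean of at least 20 counts, 2086 lay outside operons, 590 were first in one and 1095 downstream. The median log2 fold change of the 140 in total RNA was −0.39, beside 0.22 for all genes. None of the 140 lay at −1 or below there, where only 76 of the 14574 genes tested did. Besides EEF2 and RPS12, the described genes with the largest drop with 6 libraries were the alpha subunit of the nascent polypeptide-associated complex and 128up. The first (GSOIDG00011412001), which shields new chains at the ribosome exit, had 30.6, 24.0 and 54.6 RPM in Torin 1, against 234, 91.5 and 161 RPM in DMSO. 128up (GSOIDG00000792001), named for a GTP-binding protein of Drosophila, had 25.1, 13.7 and 0 RPM in Torin 1 and 96.4, 109 and 68.8 RPM in DMSO. It had a log2 fold change of −2.37 (SE 0.70) with 6 libraries and −2.30 (SE 0.63, adjusted p = 0.0580 in edgeR) with 5.

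Some drops were outside translation. The glycolytic enzyme glyceraldehyde-3-phosphate dehydrogenase (GSOIDG00002377001) had 102, 73.8 and 65.5 RPM in Torin 1, against 312, 321 and 152 RPM in DMSO. A gene described as a silk protein (GSOIDG00002532001) had 57.1, 48.0 and 76.5 RPM in Torin 1 and 139, 266 and 269 RPM in DMSO. The groups of both were apart, and both were chosen for mention after their values were seen. The silk protein gene had a log2 fold change of −1.82 (SE 0.67) for RPFs with 6 libraries and −2.11 (SE 0.62) with 5, while its total RNA had a log2 fold change of 1.37 (SE 0.87).

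Without RPF DMSO replicate 1, edgeR called 43 genes higher in Torin 1 (0.295% of genes) and 3 lower (0.0206%). The 3 lower genes carry no description. GSOIDG00018073001 (scaffold 96, 32858 to 34714) had 106, 56.6 and 98.3 RPM in Torin 1, against 211, 1043 and 460 RPM in DMSO. The groups were apart, at −3.06 on the log2 scale (SE 0.69, adjusted p = 0.0108 in edgeR) with 5 libraries and −2.65 (SE 0.79) with 6. GSOIDG00009326001 had 177, 51.5 and 109 RPM in Torin 1 and 330, 1316 and 371 RPM in DMSO, with −2.83 (SE 0.70, adjusted p = 0.0256 in edgeR) with 5 libraries and −2.48 (SE 0.82) with 6. GSOIDG00007948001, named after its values were seen, had 12.5, 36.0 and 0 RPM in Torin 1, against 14.0, 157 and 150 RPM in DMSO. It had −2.85 (SE 0.62, adjusted p = 0.00632 in edgeR) with 5 libraries, and its groups overlapped once RPF DMSO replicate 1 was counted. With a further library left out, 0 lower genes were called without RPF Torin 1 replicate 1, without RPF Torin 1 replicate 3 or without RPF DMSO replicate 2, 1 without RPF Torin 1 replicate 2, and 3 without RPF DMSO replicate 3.

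Another count model and a filter on low counts changed these calls. DESeq2 called 65 higher and 41 lower with the same 5 libraries, of which 9 and 2 were among the 43 and the 3, and edgeR called none among the 3776 genes with a mean of at least 20 counts. The 43 higher genes depend on the library that was left out. RPF DMSO replicate 1 had more RPM than both other DMSO libraries in 41 of them and more than all Torin 1 libraries in 21. Their median was 66.8, 105 and 32.8 RPM in Torin 1 replicates 1 to 3, against 131 RPM in DMSO replicate 1, 5.72 RPM in replicate 2 and 15.0 RPM in replicate 3. The groups were apart in 37 over 5 libraries (7.18% of all genes were apart and higher) but in 4 over 6 libraries (2.17% of all genes). With all libraries, 6 of the 43 were negative and 12 had an unadjusted p under 0.05. GSOIDG00013381001 (scaffold 5, 845804 to 847692) had 483, 940 and 87.4 RPM in Torin 1, against 1031, 26.3 and 29.9 RPM in DMSO. On the log2 scale it was higher by 4.25 (SE 0.82, adjusted p = 0.00150 in edgeR) with 5 libraries and by 0.61 (SE 1.01) with 6. GSOIDG00018120001 (scaffold 97, 33157 to 34307) had 395, 202 and 43.7 RPM in Torin 1 and 190, 6.86 and 29.9 RPM in DMSO, with 3.93 (SE 0.75, adjusted p = 0.00150 in edgeR) and 1.70 (SE 0.87). The number of genes called higher with 5 libraries fell to 7, 12 and 0 without Torin 1 replicates 1, 2 and 3, and to 0 and 9 without DMSO replicates 2 and 3.

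**Figure D3:**
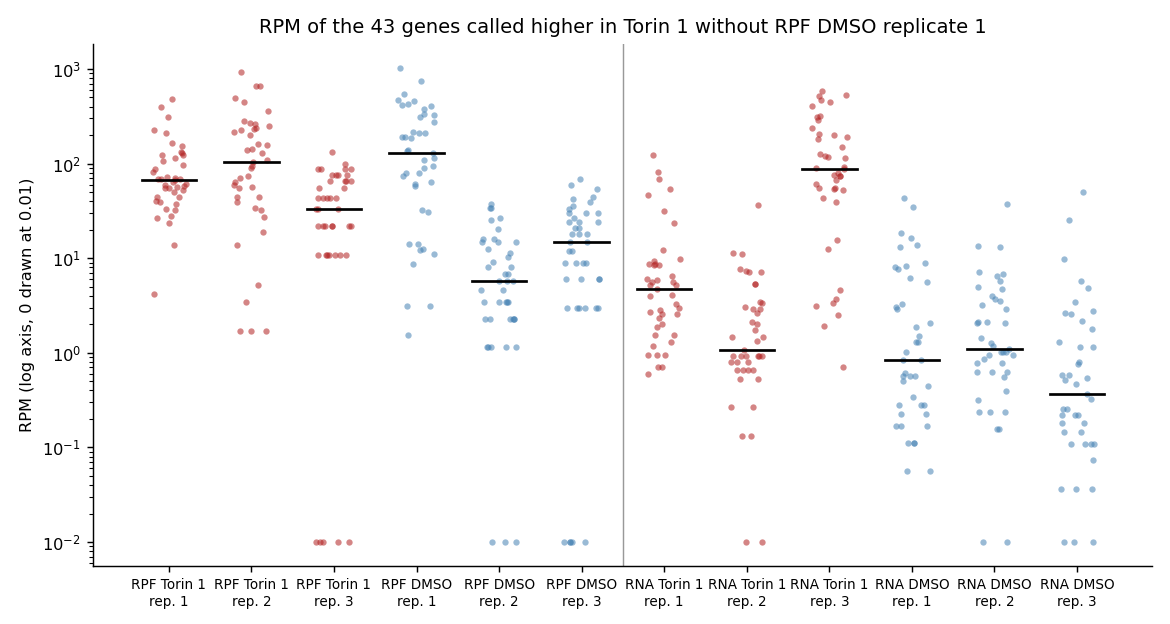
RPM (log axis) of the 43 genes called higher in Torin 1 when RPF DMSO replicate 1 was left out, in each of the 12 libraries, Torin 1 in red and DMSO in blue. Points are genes, black bars are medians, and a gene with no count is drawn at the lower end. RNA Torin 1 replicate 3 (median 86.8 RPM) has the highest median of the RNA libraries, and RPF DMSO replicate 1 (131 RPM) that of the RPF libraries.

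Total RNA of the 43 genes was uneven in the same way. All 43 had a positive log2 fold change in total RNA, with a median of 5.52, beside 0.22 for all genes. None passed an adjusted p of 0.05 there, and 33 had an unadjusted p under 0.05, where 10.1% of all genes were higher and 0.0274% lower at that threshold. The median was 4.72, 1.06 and 86.8 RPM in RNA Torin 1 replicates 1 to 3, against 0.843, 1.10 and 0.364 RPM in RNA DMSO replicates 1 to 3. RNA Torin 1 replicate 3 was the highest RNA library for 35 of them and RNA Torin 1 replicate 1 for 8. The part of these RNA levels in the footprint change was not tested. None of the 43 had a description, where 1015 of the 14574 genes tested had one. Descriptions were held for rows of lowest translational efficiency change in these same libraries, so the lack of one says nothing about the 43. They lay outside predicted operons in 32 cases, 74.4% beside 63.4% of all genes, and had a median coding length of 573 bases beside 954 bases.

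Leaving out another DMSO library instead gave a different picture. Without RPF DMSO replicate 2, which leaves RPF DMSO replicate 1 with 1 other library, edgeR called 194 genes lower and 13 higher in Torin 1. All 194 were highest in RPF DMSO replicate 1, and their median was 11.1 RPM over the Torin 1 libraries, against 255, 5.72 and 15.0 RPM in DMSO replicates 1, 2 and 3. Of the 194, 146 had a positive log2 fold change once RPF DMSO replicate 1 was left out, where 50.4% of all genes did. In total RNA 189 had a positive one, where the median of all genes was 0.22. None was in the ribosomal lists, which hold only 72 of the 14574 genes tested. Ribosomal proteins outside those lists were not checked. RNA Torin 1 replicate 3 had a median of 201 RPM for the 194 genes. Without RPF DMSO replicate 3, 35 genes were called lower, all highest in RPF DMSO replicate 1 too, and 4 higher.

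Genes of cilia and sperm show the same dependence. The axoneme is the microtubule core of cilia and sperm tails, moved by dynein arms and stiffened by radial spokes. The 25 genes found by keyword took 0.629%, 1.98% and 0.608% of RPF counts in Torin 1 replicates 1 to 3, against 2.29%, 0.176% and 0.469% in DMSO replicates 1 to 3. The groups overlapped with 6 libraries and were apart, Torin 1 higher, with 5. With 6 libraries their median log2 fold change was −0.24, the same as that of all genes, and with 5 it was 1.69 beside 0.01 for all genes. Of the 25, 22 were then positive, where 50.4% of all genes were. At the same time 16 were higher at an unadjusted p under 0.05, where 5.73% of all genes were, and none passed an adjusted p of 0.05. In total RNA the list took 0.153%, 0.0323% and 1.74% of counts in Torin 1 replicates 1 to 3 and 0.0326%, 0.0330% and 0.00894% in DMSO replicates 1 to 3. This list was drawn from the part of the description table held here, which was cut by a measure of these libraries, so its direction is not independent evidence. Treatment and the animals in each library cannot be told apart for these genes.

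The axonemal genes with most footprints were long dyneins. A beta heavy chain of the outer dynein arm (GSOIDG00009218001, scaffold 3, 1626996 to 1640764) had 2555, 8005 and 1540 RPM in Torin 1, against 3963, 639 and 1498 RPM in DMSO. Its log2 fold change was 1.09 (SE 1.01) with 6 libraries and 2.00 (SE 1.02) with 5. Another axonemal dynein heavy chain (GSOIDG00010801001) had 682, 2078 and 590 RPM in Torin 1 and 1582, 170 and 362 RPM in DMSO. A further dynein heavy chain model (GSOIDG00013210001) had 324, 1000 and 415 RPM in Torin 1, against 2000, 113 and 272 RPM in DMSO, with a log2 fold change of −0.34 (SE 0.88) with 6 libraries and 1.69 (SE 0.73) with 5. The radial spoke head gene (GSOIDG00017751001) had 447, 1316 and 382 RPM in Torin 1 and 1068, 98.3 and 311 RPM in DMSO. In each of these 4 genes RPF DMSO replicate 1 was the highest DMSO library.

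Further genes of cilia were picked after their values were seen. Coiled-coil domain containing 39 (GSOIDG00005126001), a ruler protein of the axoneme, had 267, 487 and 317 RPM in Torin 1, against 2263, 60.6 and 155 RPM in DMSO. In total RNA it had 60.9, 13.3 and 2253 RPM in Torin 1 and 6.41, 10.7 and 1.89 RPM in DMSO, so that RPF DMSO replicate 1 and RNA Torin 1 replicate 3 had nearly the same level. Enkurin (GSOIDG00015686001), a protein of sperm tails and cilia, had 163, 299 and 98.3 RPM in Torin 1 and 1179, 19.4 and 65.8 RPM in DMSO. Its total RNA was 1143 RPM in RNA Torin 1 replicate 3 and at most 15.2 RPM elsewhere. The log2 fold change of enkurin was −1.02 (SE 0.94) with 6 libraries and 2.35 (SE 0.67, adjusted p = 0.0746 in edgeR) with 5.

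Histone genes had high footprints with little total RNA in most libraries. A histone H2A gene (GSOIDG00010649001, 1 coding exon) had 957, 2105 and 1070 RPM in Torin 1, against 821, 144 and 1142 RPM in DMSO. Its total RNA was 10.3, 3.06 and 753 RPM in Torin 1 and 1.01, 3.86 and 0.546 RPM in DMSO. A gene described as histone H2A member X (GSOIDG00006499001) had 395, 1251 and 590 RPM in Torin 1 and 420, 112 and 918 RPM in DMSO. A further histone gene (GSOIDG00016664001) had 75.2, 292 and 175 RPM in Torin 1, against 170, 17.2 and 239 RPM in DMSO. The groups overlapped for all 5 members of the chromatin list, including a low H2A gene (GSOIDG00012584001), with 33.4, 10.3 and 0 RPM in Torin 1 and 3.93, 53.7 and 23.9 RPM in DMSO. The histone chaperone ASF1A (GSOIDG00004984001) had 1.39, 3.43 and 21.8 RPM in Torin 1, against 78.6, 1.14 and 8.97 RPM in DMSO.

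The summed shares of the oikosin, digestive and muscle lists overlapped between the groups in both sets of libraries. Oikosins, the proteins of the house that the trunk epithelium secretes, took 0.125%, 0.389% and 0.110% of RPF counts in Torin 1 replicates 1 to 3 and 0.183%, 0.322% and 0.393% in DMSO replicates 1 to 3. The top member (GSOIDG00014788001) had 719, 2791 and 765 RPM in Torin 1, against 879, 2263 and 2888 RPM in DMSO. The 3 next were oikosin 6d (GSOIDG00008609001) with 142 to 535 RPM in Torin 1 and 271 to 744 RPM in DMSO, oikosin 4a (GSOIDG00015848001) with 54.6 to 223 RPM in Torin 1 and 57.8 to 323 RPM in DMSO, and oikosin 4c (GSOIDG00008939001) with 65.4 to 170 RPM in Torin 1 and 78.7 to 274 RPM in DMSO. With 5 libraries, 9 of 12 oikosins were negative (list median −0.77), and none had an unadjusted p under 0.05. Then 4 of the 12, oikosin 4a and oikosin 4c among them, were apart and lower in Torin 1, where 14.9% of all genes were.

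Digestive enzymes took 0.0619%, 0.137% and 0.0579% of RPF counts in Torin 1 and 0.117%, 0.0701% and 0.0918% in DMSO. Cathepsin B (GSOIDG00017884001), a lysosomal protease, had 27.8, 54.9 and 43.7 RPM in Torin 1, against 98.4, 66.3 and 92.7 RPM in DMSO, groups apart. Chymotrypsin B (GSOIDG00013136001) had 44.5, 496 and 229 RPM in Torin 1, against 315, 37.7 and 230 RPM in DMSO. Zymogen granule membrane glycoprotein 2 (GSOIDG00006271001) had 65.5 to 317 RPM in Torin 1 and 68.5 to 233 RPM in DMSO, and carboxypeptidase A2 (GSOIDG00005280001) had 10.9 to 80.7 RPM in Torin 1 and 44.2 to 144 RPM in DMSO. Of the 24 enzymes, 4 were apart and lower in Torin 1 with 6 libraries, where 8.18% of all genes were. With 5 libraries 7 were, carboxypeptidase A2 among these, where 14.9% of all genes were. At the same time 3 were apart and higher with 5, where 7.18% of all genes were.

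Muscle genes took 0.0312%, 0.0444% and 0.0459% of RPF counts in Torin 1 and 0.236%, 0.0279% and 0.0586% in DMSO, so that the excess in DMSO came from replicate 1. Troponin C (GSOIDG00010799001), the calcium sensor of muscle, had 16.7, 17.2 and 164 RPM in Torin 1, against 1093, 9.15 and 32.9 RPM in DMSO. Its highest total RNA was 834 RPM, in RNA Torin 1 replicate 3. The 3 myosin heavy chain models named by the same rule (GSOIDG00017172001, GSOIDG00016002001 and GSOIDG00010986001) had 24.0 to 87.4 RPM in Torin 1 and 28.6 to 354 RPM in DMSO, with overlap in each.

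Footprint counts were concentrated in few genes. The gene with most counts took 21.2%, 3.22% and 42.7% of the counts in Torin 1 replicates 1 to 3, against 0.780%, 2.73% and 17.9% in DMSO replicates 1 to 3, and 0.723% to 2.11% in total RNA libraries. GSOIDG00008149001 (scaffold 24, 453168 to 456493, 6 coding exons) had 72242, 21233 and 427410 RPM in Torin 1 and 1451, 27251 and 179152 RPM in DMSO, while its total RNA lay between 9.54 and 205 RPM. It was high in both replicates numbered 3, and its groups overlapped. GSOIDG00007125001 had 211683, 528 and 5374 RPM in Torin 1, against 1844, 308 and 10570 RPM in DMSO, so that its mean in Torin 1 came from replicate 1. These genes took 17.3 of the 29.3 percentage points of mean share that all gaining genes gained in Torin 1. Their log2 fold changes, 1.48 (SE 2.38) for the first and 4.42 (SE 2.26) for the second with 6 libraries, were not past the threshold (adjusted p of 0.984 and 0.910 in edgeR).

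**Figure D4:**
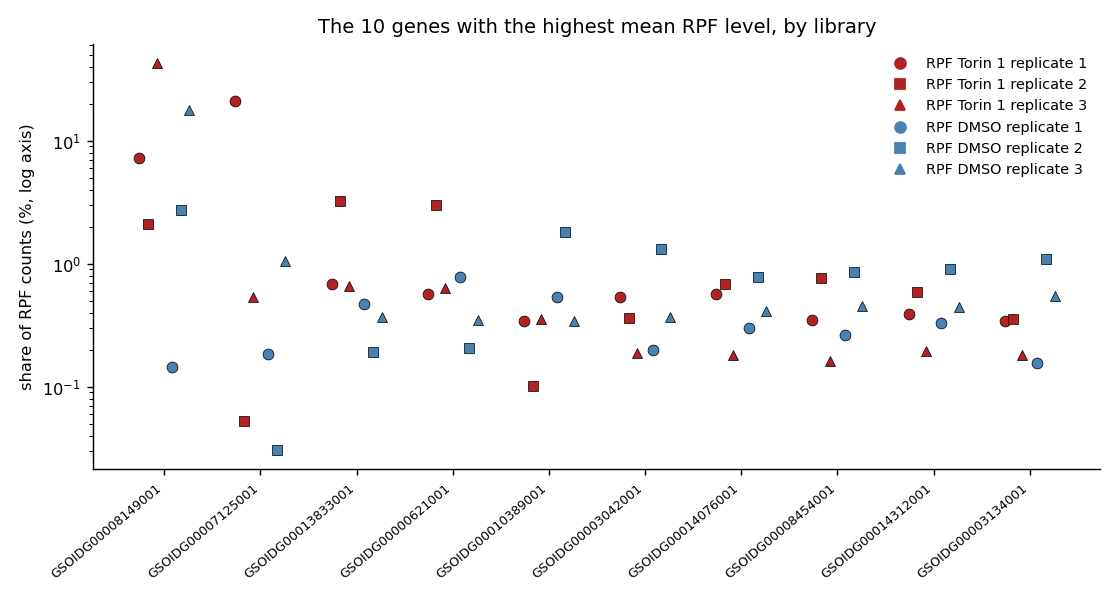
Share of RPF counts (%, log axis) of the 10 genes with the highest mean RPM over the 6 RPF libraries, with Torin 1 (red) left of DMSO (blue) and symbols for replicates. GSOIDG00013833001 is the gene whose 3 Torin 1 libraries all lie above the 3 DMSO libraries, and the others overlap.

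GSOIDG00013833001 (scaffold 535, 5212 to 7134) had 6865, 32206 and 6587 RPM in Torin 1, against 4699, 1923 and 3705 RPM in DMSO. Its groups were apart in both sets of libraries, with a log2 fold change of 2.22 (SE 1.27) with 6 and 2.49 (SE 1.39) with 5, and its total RNA was highest in RNA Torin 1 replicate 3, at 1721 RPM, beside at most 30.3 RPM elsewhere. GSOIDG00000621001 had 5685, 30036 and 6346 RPM in Torin 1, against 7802, 2059 and 3483 RPM in DMSO, with overlap through DMSO replicate 1. The largest loss of mean share was that of GSOIDG00010389001, with 3436, 1009 and 3550 RPM in Torin 1 and 5407, 18256 and 3403 RPM in DMSO. This loss rests on DMSO replicate 2. The remaining genes of the 10 (GSOIDG00003042001, GSOIDG00014076001, GSOIDG00008454001, GSOIDG00014312001 and GSOIDG00003134001) had 1628 to 7702 RPM in Torin 1 and 1554 to 13167 RPM in DMSO, each with overlap.

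With 6 libraries, 31 genes were higher in Torin 1 by the same criteria. These were an unadjusted p under 0.05, groups apart and a mean of at least 20 counts. None of the 31 had a description, where 1015 of the 14574 genes tested had one. Since descriptions were held for rows of lowest translational efficiency change in these same libraries, their absence says nothing about the 31. Of the 31, 27 lay outside predicted operons, where 63.4% of all genes did. Their median log2 fold change in total RNA was 2.14, beside 0.22 for all genes. With 5 libraries, 181 genes were higher by these criteria, of which 46 had a description, 8 of them from the axoneme list. GSOIDG00000947001 (scaffold 1, 2930365 to 2930776), a short model of 2 coding exons, had 90.5, 75.5 and 65.5 RPM in Torin 1, against 13.5, 20.6 and 8.97 RPM in DMSO. Its log2 fold change was 2.51 (SE 0.64, unadjusted p = 0.000588 in edgeR) with 6 libraries and 2.35 (SE 0.67) with 5, and 0.00 in total RNA, where it had 13.5 to 18.8 RPM in Torin 1 and 12.9 to 18.8 RPM in DMSO. GSOIDG00008774001 (scaffold 3, 32182 to 32734), also of 2 coding exons, had 143, 184 and 186 RPM in Torin 1 and 36.8, 24.0 and 41.9 RPM in DMSO. It had 2.44 (SE 0.63) with 6 and 2.49 (SE 0.67) with 5 libraries, and 2.28 in total RNA.

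Genes in operons and genes with much RNA had lower medians than other genes, a description without a test. Operons were predicted as neighbours on the same strand with a gap of at most 60 bases. Downstream genes of operons (3404) had a median log2 fold change of −0.45, first genes (1910) −0.41 and genes outside operons (9211) −0.08 with 6 libraries, and −0.19, −0.13 and 0.18 with 5. With 6 libraries, 5.61% of downstream genes, 4.71% of first genes and 3.43% of genes outside were lower at an unadjusted p under 0.05, and 0.206%, 0.524% and 1.83% were higher. Downstream genes took 17.1%, 22.4% and 14.8% of RPF counts in Torin 1 and 28.1%, 29.0% and 21.4% in DMSO, where RPF Torin 1 replicate 2 lay above RPF DMSO replicate 3. These totals hold the 2 dominant genes. GSOIDG00008149001 lay outside operons, and GSOIDG00007125001 has no gene model, so that its operon place is not known. GSOIDG00008149001 took 42.7% of RPF Torin 1 replicate 3 and 17.9% of RPF DMSO replicate 3, and GSOIDG00007125001 21.2% of RPF Torin 1 replicate 1. The part of these genes in the lower downstream share was not tested. In total RNA the medians were −0.32 downstream, −0.26 for first genes and 0.94 outside, so that the order of the classes was the same there. Of the ribosomal list, 46 of 72 members lay downstream, and the classes are not independent of it.

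By level of total RNA, the 25% of genes with the most RNA had a median of −0.41 with 6 and −0.26 with 5 libraries, and 7.74% and 8.78% of these genes were lower at an unadjusted p under 0.05. The 25% with the least RNA had −0.09 and 0.32, with 2.31% and 0.768% lower, but a gene with few counts cannot be called lower as easily. By coding exons, medians with 6 libraries were −0.20 for genes of 1 exon, −0.28 for 2 to 4, −0.23 for 5 to 9 and −0.14 for 10 or more. By coding length they were −0.27 in the shortest 25% and −0.25 in the longest 25%. With 6 libraries, these classes lay closer to the median of all genes, −0.24, than the operon classes did. With 5 libraries, genes of 1 exon had a median of 0.30, beside 0.01 for all genes, farther away than any operon class. The other exon classes and the length classes then had −0.02 to 0.04.

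**Figure D5:**
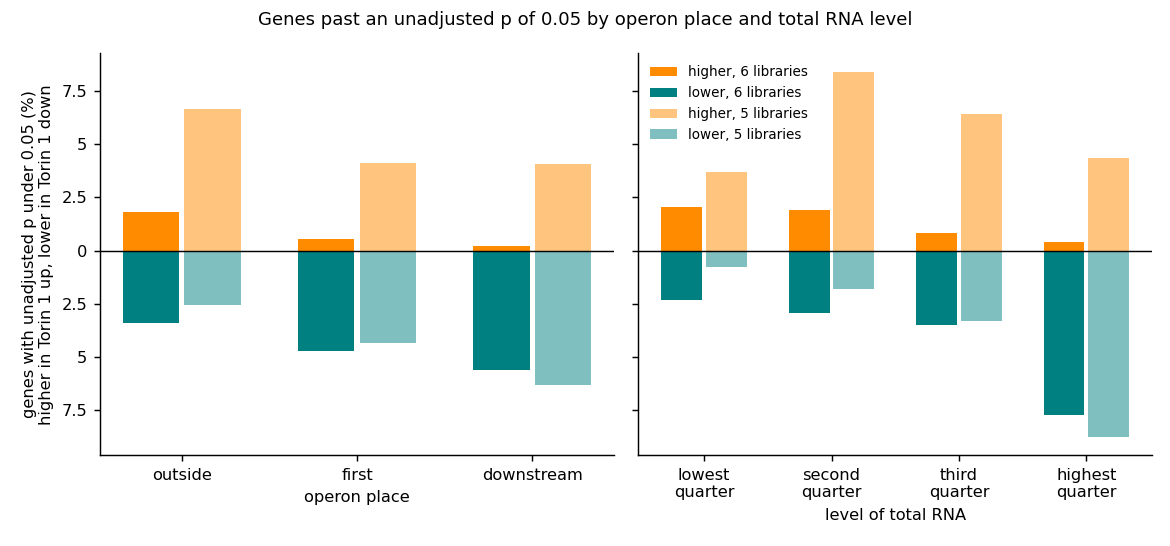
Share of genes (%) past an unadjusted p of 0.05 in edgeR, higher in Torin 1 above the axis and lower below it, by predicted operon place and by class of total RNA level, each of 25% of genes. Full colour is the comparison of 6 libraries and pale colour that of 5, without RPF DMSO replicate 1. Lower genes are most frequent downstream in operons (5.61% and 6.35%) and in the highest RNA class (7.74% and 8.78%).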

How the data were processed

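Whole day-6 females were pooled for each of 12 libraries. RPFs were prepared by nuclease digestion without cycloheximide and column purification of monosomes, and rRNA was depleted from all libraries. The authors clipped adapters, removed rRNA and tRNA reads with Bowtie2 2.1.0, mapped the rest with TopHat2 2.0.13 guided by the Genoscope gene models, and deposited whole-number counts of reads per gene, not normalised (featureCounts). The versions are those of the submitters' processing notes. How reads that map to several places, or strand, were treated is not given in the sources used here.

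Columns were matched to samples by the sample numbers of the labels, and each sample's group came from its labels. Genes with under 100 reads over the 12 libraries were left out. RPF counts were tested with edgeR 4.0.16 (TMM scaling, quasi-likelihood F test, two-sided, Benjamini-Hochberg adjustment over 14574 genes, threshold 0.05) in R 4.3.3, with all 6 RPF libraries and without RPF DMSO replicate 1, and RNA counts in a separate fit. The SE of a log2 fold change was its size divided by the square root of F. The procedure was tested on simulated data. P-values reflect the spread between the 3 libraries per group. Without RPF DMSO replicate 1 the DMSO group held replicates 2 and 3 only. Leaving out a further DMSO library left 1 in that group, and the spread then came from Torin 1 libraries alone. DESeq2 1.42.0, other scalings, filters, a replicate block, a robust fit and leaving out libraries were alternatives.

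The members and lists were chosen with earlier results of these data known. Translation lists hold the study's orthologs of human TOP mRNAs, and the axoneme, chromatin, oikosin, digestive and muscle lists were drawn by keyword from the study's table of all tested genes, held here in part (the 1998 rows of lowest translational efficiency change in these libraries, with a usable description for 1015 of the genes tested). The text names the 10 genes with the highest mean RPM, per comparison and direction at most 12 genes with the largest change among those passing its criteria (for genes without a name, at most 2 identifiers), the 4 members with most RPM of each list, all members of lists of up to 6, and the qPCR reference gene. Exceptions are stated as chosen after their values were seen, as were the ribosomal members given for their positive sign. Gene positions are those of the Genoscope models, which hold 18020 genes, of which 14525 of the genes tested matched. Deviations of same-numbered Torin 1 and DMSO libraries had correlations of −0.127, 0.00995 and −0.0437 for replicates 1, 2 and 3. Values from so few pairs cannot settle whether these libraries were paired.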

Additional observations from a re-analysis of the deposited data

How the results depend on the processing

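The shallow RPF libraries limit low genes, since 3776 of the genes tested (25.9%) had a mean of at least 20 counts over the 5 shallow RPF libraries, and the cause of the changes below was not tested. The ribosomal lists kept a median below that of all genes in every setting, at −1.51 to −0.90 for the large and −1.53 to −0.87 for the small subunit with 6 libraries, and −1.45 to −0.90 and −1.51 to −0.83 with 5. With 6 libraries, leaving out 1 library gave 0 to 43 genes higher and 0 to 194 lower at an adjusted p under 0.05 in edgeR, and no filter on low counts gave 1 higher and 3 lower. With 5 libraries, leaving out 1 more gave 0 to 12 higher and 0 to 3 lower, DESeq2 65 and 41, and the stricter filter of a mean of 20 counts 0 and 0. Deviations of same-numbered libraries had correlations of −0.127, 0.00995 and −0.0437, beside −0.129 to 0.173 for other numbers. The study's western blot shows both treatments in samples from 3 collections of animals made for ribosome profiling. Which numbered libraries came from which collection is not given in the sources used here, and these values cannot settle it. A replicate block gave 0 higher and 0 lower with 5 libraries, as with 6. Leaving out RPF DMSO replicate 1 and RPF Torin 1 replicate 3 together, chosen after seeing the data, gave 0 and 0.

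Relative to the median of all genes, leaving out 1 library gave medians of −1.96 to −1.13 for elongation factors, −1.38 to −0.64 for other TOP orthologs, 0.97 to 2.41 for axoneme and −0.24 to 2.57 for chromatin with 5 libraries, and −0.51 to 1.68 for axoneme with 6. Elongation factors had −2.19 with DESeq2 and −2.21 without a filter, and other TOP orthologs −0.73 under the stricter filter. The 25% of genes with the least RNA had −0.044 to 0.31 with 6 and 0.0046 to 0.49 with 5 libraries, and 1.60 and 1.03 under the stricter filter, which left 7 of its genes. The 25% with the most RNA had −0.50 to −0.14 with 5. The correlation of RPF DMSO replicate 2 with RNA DMSO replicate 2 was 0.725 over genes with a mean of 20 counts, an alternative chosen after seeing the data.

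Single genes whose log2 fold change turned sign when 1 library was left out, with 6 libraries, were GSOIDG00008149001 (−0.31 to 3.57), GSOIDG00007125001 (−0.30 to 6.34), GSOIDG00013381001 (−0.056 to 4.25), VIM (−0.34 to 1.10), RPS6KA1 (−1.01 to 0.063), RPS6KB1 (−0.87 to 0.24), GSOIDG00013210001 (−0.91 to 1.69), GSOIDG00017751001 (−0.031 to 1.93), enkurin GSOIDG00015686001 (−1.58 to 2.35) and GSOIDG00005126001 (−1.62 to 1.86). With 5 they were GSOIDG00008149001 (−0.89 to 2.63), GSOIDG00007125001 (−0.74 to 7.99), EIF3H (−1.35 to 0.094), TPT1 (−1.93 to 0.10), PABPC1 (−1.06 to 0.26), NPM1 (−1.41 to 0.036) and the EF1delta gene GSOIDG00003404001 (−1.03 to 0.37). Under the replicate block, GSOIDG00007125001 had −0.089 with 5 libraries, and with 6 GSOIDG00013210001 had 0.55, GSOIDG00015686001 0.65 and GSOIDG00005126001 0.62.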
